A study of Drosophila melanogaster with 2 samples.

Results

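The proteasome subunit genes of Drosophila melanogaster were taken as the protein-coding genes of the Ensembl annotation whose symbols begin with Prosalpha, Prosbeta, or Rpn or Rpt followed by a digit. This rule gave 48 of 13945 protein-coding genes. Of these, 32 were main genes, 14 for the core particle and 18 for the cap, and 16 were paralogs whose symbol adds T or R to that of a main gene. The rule used names alone, and no measured value entered it. The samples were whole mixed-sex embryos of 0 to 24 h from 1 transgenic line that carries CG7556 fused at its C-terminus to GFP, and chromatin was immunoprecipitated with an antibody against GFP and sequenced. CG7556 is named here by its annotation number alone. There were 2 biological replicates of this 1 group. The sources used here do not give the promoter that drives the fusion, and the control libraries were not analysed here. With a single group no contrast between samples exists, so counts and signal values are given without tests.

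The proteasome is the protease that degrades ubiquitin-tagged proteins in the cytosol and nucleus. Its core particle is a barrel of stacked rings, in which the outer alpha rings gate the entry and the inner beta rings carry the proteolytic sites. The regulatory cap has a base, built around a ring of Rpt ATPases that unfold substrates, and a lid, whose Rpn11 subunit removes ubiquitin chains. Flies also hold duplicated subunit genes, several of which are known to be expressed mainly in the male germline.

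The sequence under the summits is shown first, because the cap genes with peaks at their starts differed in what lay under the summits. Each window reaches 100 bp to either side of an optimal summit, on the strand of the subunit gene and on build dm6, with sequence from the RefSeq Release 6 assembly. An optimal summit is the highest point of a peak that passed the authors' thresholding across replicates. Capitals mark the DNA replication-related element TATCGATA (DRE), a binding site of the promoter factor DREF that occurs in many housekeeping promoters. Rpn5 carried a pair of summits, at chr3R:5789165-5789365 and chr3R:5789380-5789580 on the plus strand, and neither window held a DRE. The window of Rpn11, at chr2L:5059906-5060106 on the minus strand, held none either. The windows of Rpt5, at chr3R:23752757-23752957, and Rpn12, at chr3L:16582788-16582988, both on the plus strand, held 1 DRE each.
Rpn5 upstream summit: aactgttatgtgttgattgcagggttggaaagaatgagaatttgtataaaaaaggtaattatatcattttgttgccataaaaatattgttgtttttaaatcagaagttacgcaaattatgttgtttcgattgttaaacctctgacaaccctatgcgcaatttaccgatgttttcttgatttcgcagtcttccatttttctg
Rpn5 start summit: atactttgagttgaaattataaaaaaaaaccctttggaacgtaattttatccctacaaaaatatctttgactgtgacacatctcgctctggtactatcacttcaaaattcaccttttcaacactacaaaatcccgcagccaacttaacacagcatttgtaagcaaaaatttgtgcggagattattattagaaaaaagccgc
Rpn11 summit: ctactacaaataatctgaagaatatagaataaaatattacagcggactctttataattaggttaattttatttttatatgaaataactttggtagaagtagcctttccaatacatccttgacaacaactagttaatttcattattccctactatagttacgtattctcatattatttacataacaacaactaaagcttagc
Rpt5 summit: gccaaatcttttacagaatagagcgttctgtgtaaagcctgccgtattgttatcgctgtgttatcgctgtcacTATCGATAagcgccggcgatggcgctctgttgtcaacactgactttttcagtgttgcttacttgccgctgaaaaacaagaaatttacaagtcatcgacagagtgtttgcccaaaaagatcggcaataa
Rpn12 summit: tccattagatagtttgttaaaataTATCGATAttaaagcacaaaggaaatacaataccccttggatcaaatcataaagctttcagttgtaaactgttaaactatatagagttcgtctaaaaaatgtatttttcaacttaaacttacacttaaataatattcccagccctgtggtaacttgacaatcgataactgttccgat

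Promoters are shown from 250 bp before to 50 bp after the 5'-most start site for 3 genes. Rpn3, at chr2L:19051540-19051839 on the plus strand, had a peak at its start and a promoter with a long repeat. Prosalpha4, at chrX:16276020-16276319 on the plus strand, was the core gene with the highest signal, and Prosalpha4T1, at chr3R:20749025-20749324 on the minus strand, is one of its paralogs, with no region in any list. Capitals mark a DRE in Rpn3 and the core of Ohler motif 1, GGTCACAC, in Prosalpha4. None of the marked motifs occurred in the Prosalpha4T1 promoter.
Rpn3 promoter: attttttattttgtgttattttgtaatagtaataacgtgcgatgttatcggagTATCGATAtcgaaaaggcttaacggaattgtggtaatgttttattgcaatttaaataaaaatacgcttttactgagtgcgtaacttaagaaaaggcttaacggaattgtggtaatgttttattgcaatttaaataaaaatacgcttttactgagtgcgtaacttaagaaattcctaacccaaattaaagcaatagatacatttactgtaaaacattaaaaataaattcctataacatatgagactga
Prosalpha4 promoter: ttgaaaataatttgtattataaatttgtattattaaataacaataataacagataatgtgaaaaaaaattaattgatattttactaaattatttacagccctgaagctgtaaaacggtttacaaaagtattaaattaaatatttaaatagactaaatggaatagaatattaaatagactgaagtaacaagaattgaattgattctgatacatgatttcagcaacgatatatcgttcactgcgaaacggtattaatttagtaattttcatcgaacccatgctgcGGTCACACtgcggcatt
Prosalpha4T1 promoter: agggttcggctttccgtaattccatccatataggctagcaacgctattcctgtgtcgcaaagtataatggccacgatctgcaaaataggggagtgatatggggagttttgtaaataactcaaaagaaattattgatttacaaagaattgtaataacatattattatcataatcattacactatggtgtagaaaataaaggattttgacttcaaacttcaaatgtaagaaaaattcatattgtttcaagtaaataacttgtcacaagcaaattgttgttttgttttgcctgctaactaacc

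Optimal summits lay within 500 bp of a start site of 8 of the 48 subunit genes, or 16.7%, beside 21.1% of all protein-coding genes. All 8 were cap genes, and they are called bound below. The core had 0 of 14, while the cap had 8 of 18, or 44.4%. Within the cap, the lid had 5 of 8 (Rpn3, Rpn5, Rpn6, Rpn11 and Rpn12) and the base had 3 of 10 (Rpn2, Rpn13 and Rpt5). Among the 6 Rpt ATPase genes, Rpt5 alone had one. The main genes together had 8 of 32, or 25.0%, against 0 of 16 among the paralogs. For all 48 genes the share was thus close to that of all genes, and the cap stood above it while the core and the paralogs stood below it.

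Signal is the authors' value for each region. Its scale is unstated, and values are compared only within a list. The optimal list held 7184 peaks with signal of 137 to 4859 and a median of 244. The pooled list, made by the authors from both replicates together, and the list of each replicate held 30000 regions each, background regions included. The lists hold no read counts, so the depth of either library is unknown.

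Rpn5 encodes a scaffold subunit of the lid and had the highest signal among the subunit genes. Its upstream peak, chr3R:5788968-5789314, had an optimal signal of 530, which ranked 1093 of 7184. In the replicate lists that summit had signal of 297 (rank 985) in replicate 1 and 235 (rank 1304) in replicate 2. The summit lay 228 bp upstream of the Rpn5 start, in an intron of the divergent neighbour Hat1, a histone acetyltransferase gene whose start was nearer, at 119 bp. The second peak, chr3R:5789273-5789554, had its summit 13 bp upstream of the Rpn5 start with an optimal signal of 333 (rank 2306), and signal of 191 in replicate 1 and 162 in replicate 2. The Rpn5 and Hat1 starts lie 109 bp apart, so the pair of summits flanked the start of Hat1. These were the Rpn5 summits whose sequences are printed above, and no other subunit gene had a pair of optimal summits.

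Rpn3 encodes another scaffold subunit of the lid. Its peak, chr2L:19051686-19051964, had an optimal signal of 428 (rank 1570), with 207 (rank 1809) in replicate 1 and 216 (rank 1527) in replicate 2. The summit lay 27 bp upstream of the first of its start sites. The promoter holds an exact tandem repeat of 78 bp that ends beside the summit, and its part in the signal was not tested. The start of l(2)37Bb, on the other strand, lay 178 bp from that of Rpn3.

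Rpn11 encodes the lid's deubiquitinase. Its peak, chr2L:5059728-5060283, had an optimal signal of 359 (rank 2057), with 182 (rank 2210) in replicate 1 and 173 (rank 2181) in replicate 2. The summit lay in intergenic sequence 216 bp upstream of the start, and no other gene started within 500 bp of it. Of the genes with the 3 highest values, Rpn11 was thus the one with no divergent neighbour at its summit.

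The remaining lid genes with an optimal summit stood lower. Rpn6, a lid scaffold subunit known from human cells and worms to limit the assembly of the whole proteasome, had an optimal signal of 220 (rank 4140), with 106 in replicate 1 and 114 in replicate 2. Its peak, chr2R:14752182-14752737, had the summit in an intron of Rpn6 itself, 450 bp downstream of the first start site and 189 bp upstream of the second. There the start of ave, an adaptor gene of receptor tyrosine kinase signalling on the other strand, lay 61 bp from the summit. Rpn12, a subunit that joins the lid late in its assembly in yeast, had an optimal signal of 142 (rank 6942), with 67.1 in replicate 1 and 74.5 in replicate 2. Its peak, chr3L:16582610-16583165, had the summit 140 bp upstream, with no other start within 500 bp.

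In the base, Rpn13 encodes a ubiquitin receptor. Its peak, chr2R:13960309-13960864, had an optimal signal of 231 (rank 3892), and its highest region had signal of 134 (rank 3391) in replicate 1 and 87.0 (rank 5750) in replicate 2. The summit lay 183 bp upstream of Rpn13 and 88 bp from the start of CtsL1, a cathepsin gene on the other strand. Rpn2 encodes the large scaffold of the base and had an optimal signal of 146 (rank 6709) at chr3R:29153051-29153606, with 76.6 in replicate 1 and 65.9 in replicate 2. Its summit lay 195 bp upstream of Rpn2 but 63 bp from the start of Slbp, which encodes the histone mRNA stem-loop binding protein.

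Rpt5 is the ATPase gene with an optimal summit, with a signal of 160 (rank 6024) at chr3R:23752579-23753134. In the replicate lists it had 55.3 (rank 9555) in replicate 1 and 118 (rank 3813) in replicate 2. Rpt5 had the lowest ratio of replicate 1 to replicate 2 among the 9 optimal summits of subunit genes, 0.470, and Rpn13 had the highest, 1.74, taken at the replicate 2 region nearest its optimal summit. The median of the 9 ratios was 1.06. Over all 6771 optimal peaks matched in both replicates the median ratio was 1.08, with the 5th and 95th percentiles at 0.565 and 1.70, so Rpt5 and Rpn13 lay outside that range and the other 7 summits inside it. These 2 were also the least closely matched. The matched summit lay 87 bp from the optimal one for Rpt5 in replicate 1 and 98 bp for Rpn13 in replicate 2. At the other 7 summits the distance was at most 26 bp.

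**Figure D1:**
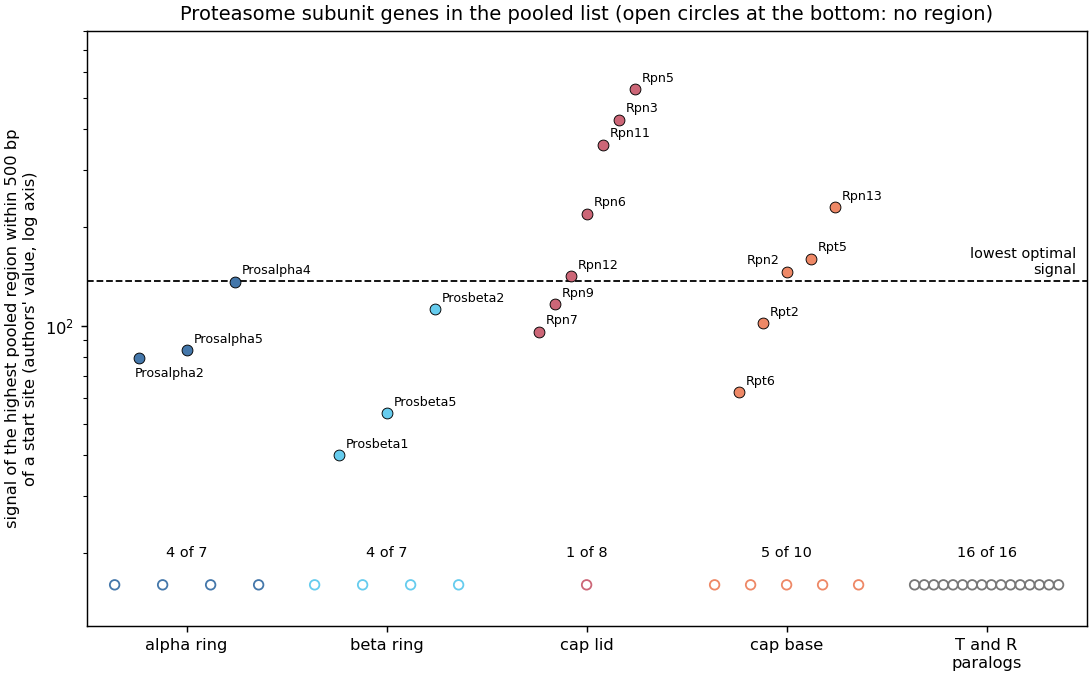
Signal of the highest pooled region within 500 bp of a start site (authors' value, log axis) for the main genes of each proteasome part and for the paralogs. Filled points are genes with a region, open circles at the bottom are genes without one, and the dashed line is the lowest signal of the optimal list, 137. The 8 points above the line are all cap genes, Prosalpha4 sits just below it, and all 16 paralogs are at the bottom.

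The highest summits of the 8 bound genes had a median optimal signal of 226, beside 301 over the 2939 protein-coding genes with an optimal summit. Rpn5 had 730 of those 2939 genes above it, and Rpn12 had 2870 above it. By rank in the optimal list, Rpn5, Rpn3 and Rpn11 lay in the first 28.6% of peaks, Rpn13 and Rpn6 near the middle, and Rpt5, Rpn2 and Rpn12 in the last part, at 83.9%, 93.4% and 96.6%. The optimal threshold separated neighbours of nearly the same signal. Rpn12, the lowest gene inside, had 142, and Prosalpha4, the highest gene outside, had 136.

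The pooled list extended the count to 18 of 48 genes, or 37.5%, beside 42.1% of all protein-coding genes. The core had 6 of 14 and the cap 12 of 18, with 7 of 8 in the lid and 5 of 10 in the base. The paralogs had 0 of 16. Among genes with a pooled region, the median pooled signal was 81.9 for the 6 core genes and 153 for the 12 cap genes, beside 137 for all 5872 protein-coding genes with one. Below the optimal threshold, the cap genes were Rpn9 (116, rank 8513), Rpt2 (102, rank 9780), Rpn7 (95.8, rank 10367) and Rpt6 (62.3, rank 15116). Rpn7 and Rpn9 are lid scaffold subunits, and Rpt2 and Rpt6 are ATPases.

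In the alpha ring, Prosalpha4 had a pooled signal of 136 (rank 7229), with 56.4 (rank 9370) in replicate 1 and 81.4 (rank 6253) in replicate 2. Its summit lay 307 bp upstream of its own start, beyond the start of the divergent neighbour kat80, a microtubule severing subunit gene 90 bp away. Prosalpha5 had a pooled signal of 84.1 (rank 11698) and Prosalpha2 one of 79.7 (rank 12270). These 3 alpha genes were the only core genes with a region in both replicate lists.

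In the beta ring, 3 of 7 genes had a pooled region (42.9%), beside 42.1% of all protein-coding genes. These were the genes of the 3 proteolytic subunits. Prosbeta2, the trypsin-like subunit, had a pooled signal of 112 (rank 8858) and a region of 53.0 in replicate 1. Prosbeta5, the chymotrypsin-like subunit, had 53.8 (rank 16921) and a region of 39.2 in replicate 2. Prosbeta1, the caspase-like subunit, had 40.0 (rank 20903) and a region of 38.3 in replicate 1. Each of them had a region in 1 replicate list only. The beta ring had 0 of 7 genes with a region in both, beside 38.7% of all protein-coding genes.

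The replicate lists, taken with any region within 500 bp, gave 7 core genes and 14 cap genes in replicate 1, beside 44.7% of all protein-coding genes, and 7 core genes and 13 cap genes in replicate 2, beside 44.8%. The lid had 8 of 8 in replicate 1. A region in both replicates was present at 3 of 14 core genes and 12 of 18 cap genes, beside 38.7% of all protein-coding genes. Genes with a region in a single replicate list and none in the pooled list were Prosalpha3, Prosalpha6, Prosalpha7, Prosbeta3 and Prosbeta7 in the core and Rpn1, Rpn8 and Rpt4 in the cap. Their signal was between 13.8, for Prosbeta3 in replicate 1, and 64.9, for Rpn8 in replicate 1. Rpn8 is the inactive partner of Rpn11 in the lid.

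Over all 4 lists, 11 of 14 core genes and 15 of 18 cap genes had a region within 500 bp, beside 51.3% of all protein-coding genes. The main genes without any were Prosalpha1, Prosbeta4 and Prosbeta6 in the core and Rpn10, Rpt1 and Rpt3 in the cap. Rpn10 is a ubiquitin receptor, as is Rpn13, which had an optimal summit. In this widest count core and cap differed less than in the optimal list or in the regions of both replicates.

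**Figure D2:**
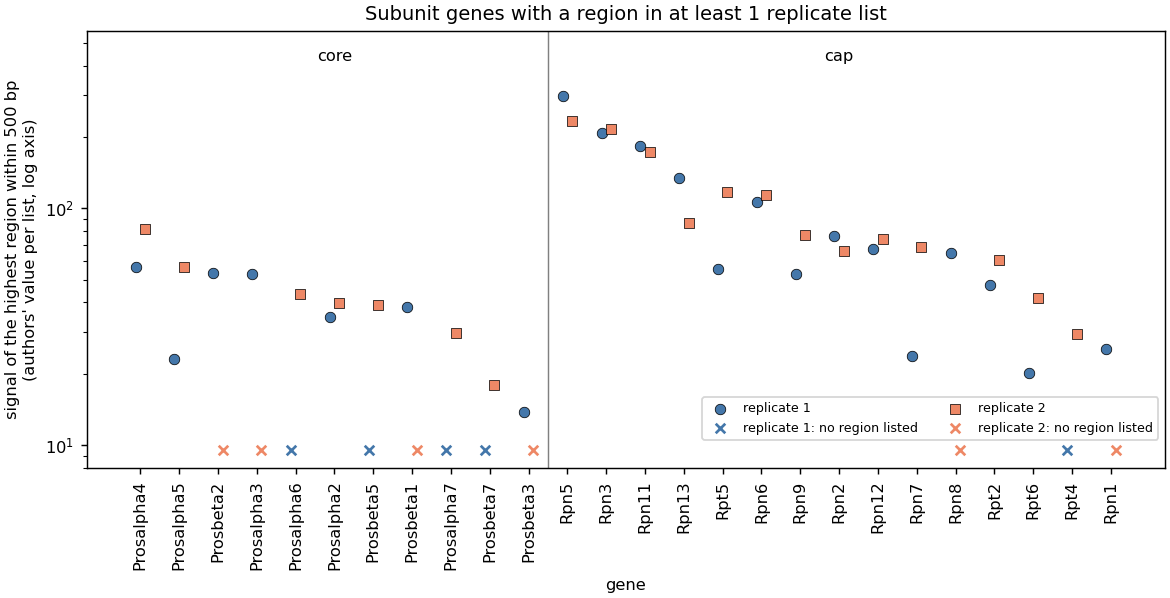
Signal of the highest region within 500 bp of a start site in replicate 1 (circles) and replicate 2 (squares) on a log axis, for the 11 core and 15 cap genes with a region in at least 1 replicate list. Crosses at the bottom mark a replicate with no region. Core values stay at or below 81.4, and 8 of 11 core genes have a cross, against 3 of 15 cap genes.

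Changing how a summit in the optimal list is assigned to a gene moved the cap count and left the core and the paralogs at 0. Within 200 bp, 7 subunit genes remained, all but Rpn11, which was 14.6% of the 48 beside 13.9% of all protein-coding genes. Within 1000 bp the count was 8, or 16.7%, beside 24.2%. When each summit was given to the gene of the nearest start alone, the count was 5 (Rpn3, Rpn5, Rpn11, Rpn12 and Rpt5). That was 10.4% of the 48, beside 16.3% of all protein-coding genes. Rpn2, Rpn6 and Rpn13 were lost there, since Slbp, ave and CtsL1 start nearer to their summits. Among the 3592 optimal peaks of highest signal, 3 subunit genes had a summit (Rpn3, Rpn5 and Rpn11). That was 6.25% of the 48, beside 13.2% of all protein-coding genes. Taking the 7184 highest regions of a single replicate in place of the optimal list gave 6 genes for replicate 1, or 12.5%, beside 21.1% of all protein-coding genes. For replicate 2 it gave 9 genes, or 18.8%, beside 21.9%, and Prosalpha4 was the core gene among them.

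**Figure D3:**
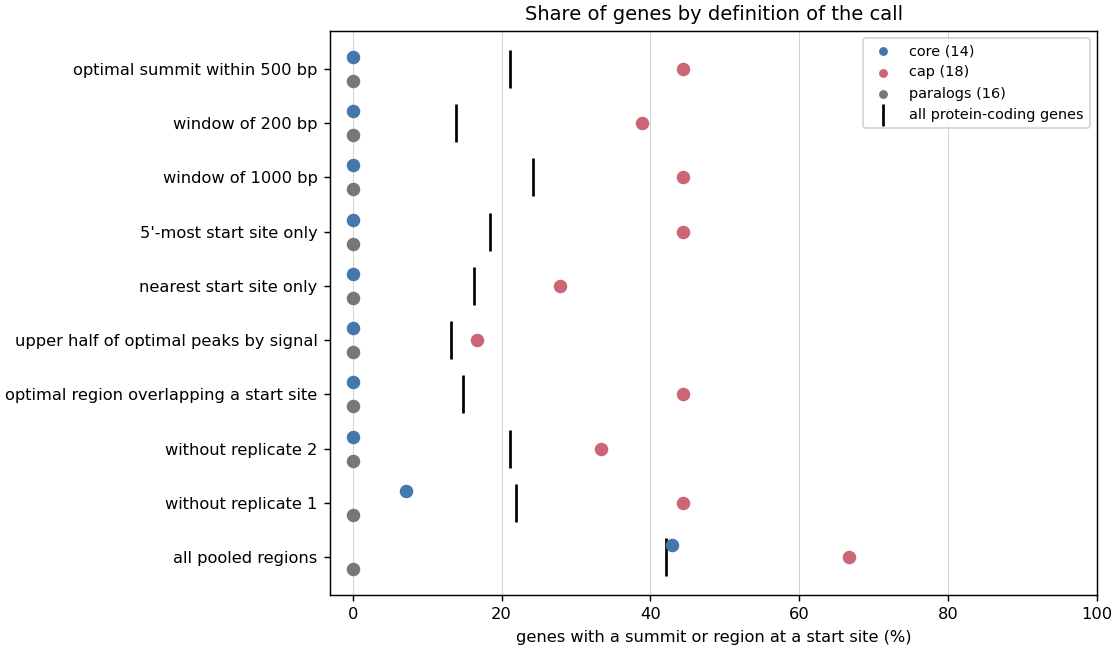
Share of genes with a summit or region at a start site (%) under each definition, for the 14 core genes, the 18 cap genes, the 16 paralogs (points) and all 13945 protein-coding genes (vertical bars). The cap lies right of the bar in every row, the paralogs stay at 0, and the core leaves 0 in the replicate 2 list and in the pooled list, where it lies near the bar.

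Many subunit genes share a promoter region with a gene on the other strand. A divergent start within 500 bp was present at 9 of 14 core genes and 9 of 18 cap genes, so at 18 of 32 main genes (56.2%), against 2 of 16 paralogs (12.5%) and 25.0% of all protein-coding genes. Of the 9 such cap genes, 5 had an optimal summit (Rpn2, Rpn3, Rpn5, Rpn13 and Rpt5), and of the 9 such core genes, 0 had one. Among all protein-coding genes, 37.1% of those with a divergent start within 500 bp had an optimal summit, beside 15.7% of the others. At Rpt5, the closest pair with an optimal summit, the starts of Rpt5 and RanBP3, a Ran-binding protein gene, lay 42 bp apart with the summit between them. At such pairs the lists cannot assign a summit to one gene or the other.

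The highest optimal summit of each of the 8 bound genes lay upstream of the nearest start site of that gene, by 19 to 228 bp with a median of 186 bp. In the pooled list 17 of 18 lay upstream. Rpn9 was the exception, with its summit 178 bp downstream of the nearest of its starts. The sign depends on the start chosen, since the Rpn6 summit lay 450 bp downstream of the first Rpn6 start. The share of upstream summits over all protein-coding genes was not computed, so these counts have no background beside them. No optimal or pooled summit lay inside the body of a subunit gene farther than 500 bp from its own starts.

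**Figure D4:**
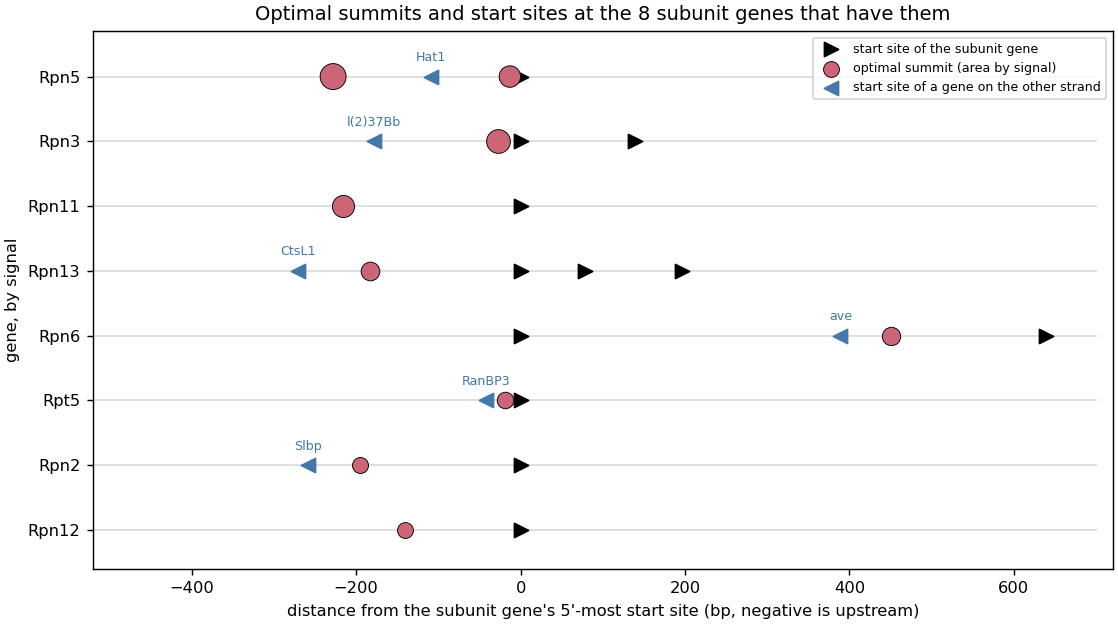
Position of the 9 optimal summits (circles, area by signal) relative to the 5'-most start site of each of the 8 subunit genes, in bp, with upstream negative. Black triangles are the starts of the subunit gene and blue triangles those of genes on the other strand within 500 bp of the summit. Rpn5 has summits on both sides of the Hat1 start, the Rpn6 summit lies beside the ave start inside Rpn6, and Rpn11 and Rpn12 have no neighbour.

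The paralogs belonged to 12 main genes, of which Prosalpha4, Prosbeta2, Prosbeta4 and Prosbeta5 each had a pair. Of these 12 main genes, 2 had an optimal summit (Rpn12 and Rpn13), 6 a pooled region and 9 a region in any list, while their 16 paralogs had 0 in each case. Over all protein-coding genes these shares were 21.1%, 42.1% and 51.3%. Prosalpha1 and Prosalpha1R, neither with a region, are neighbours on the minus strand of 2R. They start at 7828678 and 7831771 and have 4 exons each. Whether sequencing reads could be told apart at this pair was not tested. Of the 20 main genes without a paralog, 6 had an optimal summit and 12 a pooled region, beside the same 21.1% and 42.1%. The nearest optimal summit lay at a median of 17390 bp from a paralog start, against 3295 bp for the main genes and 5975 bp for all protein-coding genes. Even the nearest pooled summit lay at least 2224 bp from every paralog, with a median of 8231 bp, against 191 bp for the main genes and 1391 bp for all genes. In the single lists, no region of replicate 1 came within 2101 bp of a paralog and none of replicate 2 within 1902 bp. The paralogs also differed in structure, with 6 of 16 encoded in a single exon (37.5%), against 4 of 32 main genes (12.5%) and 15.2% of all protein-coding genes. Whole embryos were profiled, and adult testis was not analysed here.

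Promoter sequence was compared over 300 bp, from 250 bp before to 50 bp after the 5'-most start, on both strands. The DRE occurred at 12 of 32 main genes (37.5%), against 0 of 16 paralogs and 9.36% of all 13945 promoters. In the core it occurred at 6 of 14 genes, or 42.9% (Prosalpha3, Prosalpha5, Prosalpha6, Prosbeta1, Prosbeta2 and Prosbeta6), and in the cap at 6 of 18, or 33.3% (Rpn3, Rpn7, Rpn9, Rpn12, Rpn13 and Rpt5). Of the main genes with a DRE, 4 of 12 had an optimal summit (Rpn3, Rpn12, Rpn13 and Rpt5), and of those without, 4 of 20. Over all protein-coding genes, 29.8% of those with a DRE and 20.2% of those without had one. Within 100 bp of the summits themselves, a DRE occurred at 3 of the 9 subunit gene summits (Rpn12, Rpn13 and Rpt5), beside 2.02% of all 7184 optimal summits. The 7184 were not limited to summits near a start site, as the 9 were, so these are shares of unlike sets. The subunit gene summits with a DRE had signal of 142 at Rpn12, 231 at Rpn13 and 160 at Rpt5. The windows of the other 5 bound genes held no DRE.

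The letters CGATA, the core recognised by the boundary factor BEAF, lie inside every DRE on both strands, so the 2 motifs overlap. CGATA occurred at 27 of 32 main genes (84.4%), against 8 of 16 paralogs and 47.4% of all promoters. The core of Ohler motif 1, GGTCACAC, which marks broadly expressed genes, occurred at 15.6% of main genes (Prosalpha2, Prosalpha4, Prosbeta3, Rpn1 and Rpn7), 0 paralogs and 7.70% of all promoters. It was at none of the 8 bound genes. The GAGA motif, GAGAG, occurred at 9.38% of main genes, 37.5% of paralogs and 29.7% of all promoters.

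The antioxidant response core TGACNNNGC, the kind of site bound by Cap'n'collar factors, occurred at 15.6% of main genes and 8.63% of all promoters, and at 0 of the 8 bound genes. The E-box CACGTG occurred at 0 of 48 subunit genes, beside 4.20% of all promoters. The variant CAGCTG occurred at 3.12% of main genes (Rpt3), 6.25% of paralogs (Rpt3R) and 17.7% of all promoters. TATAAA was present at 40.6% of main genes, 31.2% of paralogs and 45.8% of all promoters, and the initiator TCAGT at 56.2% of main genes, 8 of 16 paralogs and 51.5% of all promoters. GC content had a median of 33.2% over the promoters of all 48 genes, beside 38.0% over all promoters. A match describes the letters in the window and not occupancy by a factor.

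**Figure D5:**
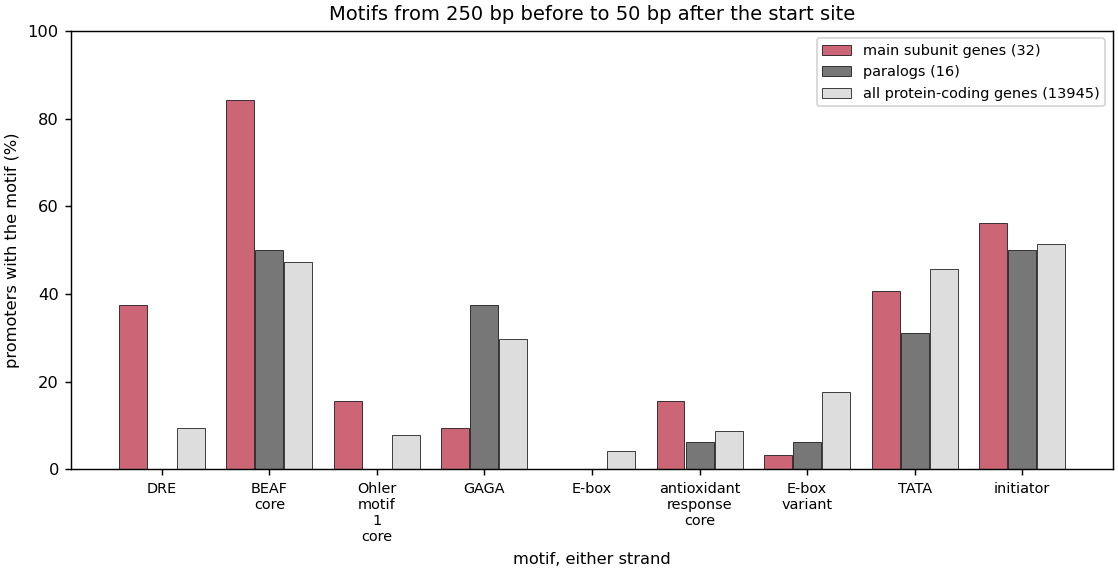
Share of promoters (%) with each of 9 motifs on either strand, for 32 main genes, 16 paralogs and all 13945 protein-coding genes, as bars from 0. The DRE bar of the main genes, 37.5%, stands above that of all genes, 9.36%, with no bar for the paralogs, and the GAGA bar of the main genes, 9.38%, stands below that of the paralogs, 37.5%.

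Other genes of the ubiquitin and proteasome system were described from a list of 22 genes for assembly, regulation, ubiquitin supply and delivery. Of these, 7 had an optimal summit (31.8%, beside 21.1% of all protein-coding genes), and 20 had a pooled region (90.9%, beside 42.1%). Any start site of a gene counted. Among the 7, cnc had 10 starts, Ubi-p63E 4, PI31 3, Keap1 and Ubi-p5E 2 each, and Pomp and Uba1 1 each. The median over all protein-coding genes was 1, and the effect of this on the shares was not tested. Pomp, the chaperone that assembles the core particle, had the highest optimal signal of the 7, 457 (rank 1434), at a summit 209 bp upstream of its start. Its signal was above that of every subunit gene other than Rpn5. The core genes, whose products Pomp assembles, had no optimal summit, and a link between these observations was not tested. The gene cnc, whose protein activates proteasome genes under stress, had an optimal signal of 340 (rank 2224), and Keap1, which restrains it, had 138 (rank 7131). The polyubiquitin genes Ubi-p63E and Ubi-p5E had 274 and 170. PI31, a proteasome regulator, had 217, at a summit nearest the start of ADD1, and Uba1, the ubiquitin-activating enzyme, had 157. Sem1, a small lid subunit outside the naming rule, had a pooled signal of 49.7 and no optimal summit.

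By chromosome, the X held 6 subunit genes, namely Prosalpha4, Rpt3, Rpt4, Rpt6, Prosbeta2R1 and Rpn13R, and 0 had an optimal summit, beside 480 of the 2196 protein-coding genes on the X. The cap genes with a summit were divided as 2 of 2 on 2L, 2 of 4 on 2R, 1 of 3 on 3L and 3 of 6 on 3R. With so few genes on an arm these counts show only where the genes lie.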

How the data were processed

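Peaks came from anti-GFP ChIP-seq of 2 biological replicates, with chromatin sonicated to 200 to 800 bp per the labels. The authors made, per the deposited description files, lists of peaks and background from each replicate and from both pooled against a control, and an optimal list that passed thresholding by irreproducible discovery rate. For the aligner, the peak caller and the threshold, nothing is given in the sources used here. The signal deposited by the authors is 1 value per region, and the deposited summit offset gives the summit from the region start. The dm6 lists were used, and the same lists on dm3 were not used here. Depth is unknown, so no interval is given.

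Gene models with 23722 start sites were those of Ensembl release 115 (BDGP 6.54), and start sites of 3951 non-coding genes also counted when the nearest start was sought. A gene was called when any of its starts had a summit within 500 bp, and its highest summit stood for it. Replicate regions were matched to an optimal summit within 100 bp. The named genes are all subunit genes with an optimal summit, the others by pooled signal, their neighbours and the listed pathway genes with an optimal summit, and values of other genes were added where a result turned on them. Subunit genes, lists and motifs were chosen with earlier results of these data known. Scripts used Python 3.11.15 with pandas 2.3.3 and were tested on simulated data. The closing section gives the effect of 9 other definitions.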

Additional observations from a re-analysis of the deposited data

How the results depend on the processing

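The count of 8 subunit genes, all in the cap, was 7 within 200 bp and 8 within 1000 bp, from the 5'-most start alone and by overlap of the peak with a start. Within 200 bp the share was 14.6% of the 48 genes beside 13.9% of all protein-coding genes. Within 1000 bp it was 16.7% beside 24.2%. From the 5'-most start alone, the share was 16.7% beside 18.5%. By overlap it was 16.7% beside 14.8%. The count was 5 by the nearest start alone (10.4%, beside 16.3% of all protein-coding genes). It was 3 among the 3592 highest optimal peaks (6.25%, beside 13.2%) and 18 with all pooled regions (37.5%, beside 42.1%). The cap count was 5, 3 and 12 under those 3 settings (27.8%, 16.7% and 66.7%). The core count was 0, 0 and 6, the last being 42.9% and near the share of all genes. Over the lists of single replicates, each limited to its 7184 highest regions, the count ranged from 6 without replicate 2 to 9 without replicate 1. These were 12.5% and 18.8% of the subunit genes, beside 21.1% and 21.9% of all protein-coding genes. The cap count ranged from 6 to 8 and the core count from 0 to 1, which was Prosalpha4. Requiring a summit among the 7184 highest of both replicates, an alternative chosen after seeing the data, gave 5 subunit genes, all in the cap. The share of all protein-coding genes under that setting was not computed, so this count has no background beside it. The paralogs stayed at 0 under every definition listed here. The median signal of the bound genes was 226 in the pooled list, and 116 without replicate 1 and 120 without replicate 2, where the values are on the scale of a single replicate list and cannot be compared with the pooled one. No paired analysis was possible because both samples belong to 1 group. Unknown depth and an unstated signal scale limit what the lower regions can show.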

Other observations

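The Rpn3 promoter printed above holds an exact tandem repeat of 78 bp, with copies at -187 to -110 and -109 to -32 relative to its first start, and the optimal summit at -27 lies next to the second copy. An exact repeat of at least 30 bp occurred in 1 of 48 subunit gene promoters, beside 22 of 13945 promoters (0.158%). The next longest repeat in a subunit gene promoter was 16 bp, in Prosbeta2. The part of the repeat in the Rpn3 signal was not tested.

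Prosbeta6 had no region within 500 bp in any list, and its nearest optimal summit lay 1106 bp from its start with a signal of 146.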
